A study of Homo sapiens with 15 samples.

Results

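Rescue1 and Rescue2 are clones of the renal proximal tubule epithelial cell line RPTEC in which SETD2 was put back into knockout cells, and they were compared here by ATAC-seq, which marks accessible DNA by transposase insertion. The comparison used 6 of the 15 libraries of the series, 3 per rescue clone. Overlapping peaks (1 bp or more) of these 6 libraries on chromosomes 1 to 22, X and Y were merged into 299887 regions. A region was Rescue1-only if it held a peak in 3 of 3 Rescue1 libraries and in 0 of 3 Rescue2 libraries, and Rescue2-only in the reverse case. This gave 2237 Rescue1-only regions (0.746% of the merged regions) and 7537 Rescue2-only regions (2.51%), while 148223 regions (49.4%) held a peak in all 6 libraries.

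All groups share the hTERT-immortalised RPTEC background under G418. The WT group is the parental line. KO1 and KO2 are single-cell clones made by CRISPR/Cas9 with a guide in exon 3 of SETD2 and carry frameshifts. The rescue lines are single colonies picked after lentiviral delivery of FLAG-tagged full-length human SETD2 and blasticidin selection, so each is 1 clone, and its 3 libraries are replicates of that clone rather than separate clones. The rescue libraries carry the clone name of KO2, which makes KO2 their parent by name only; the labels do not state it. Every p-value below therefore rests on libraries rather than on separate clones, and the spread between libraries of a clone may be technical.

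The SETD2 protein places the third methyl group on lysine 36 of histone H3 (H3K36me3) over the bodies of transcribed genes. Open chromatin marks promoters, which are often open in many cell types, and distal elements such as enhancers, which are occupied by sequence-specific factors and differ more between cell states. AP-1 and RUNX are families of such factors in epithelial cells, and the ZEB and SNAI repressors of epithelial-to-mesenchymal transition bind an E-box.

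The Rescue1 lists held 228768, 214061 and 208067 peaks and the Rescue2 lists 265193, 234766 and 208740. Peak number did not separate the clones (216965 ± 10652 against 236233 ± 28255, SD, n = 3 each; exact permutation p = 0.3, two-sided; 0.1 is the smallest p that 3 against 3 allows). The lists hold no read totals. The background level that the peak caller expected at a base, which scales with depth, was 0.935 ± 0.199 reads in Rescue1 and 1.04 ± 0.0997 in Rescue2 (SD, n = 3; exact permutation p = 0.4). Rescue2 replicate 1 stood apart, with 24121 regions (9.80% of those it held) seen in no other rescue library, against 2.11% to 5.66% in the other 5. Promoter peaks of the proximal tubule genes PAX8, PAX2, GGT1 and CDH6 were called in 15 of 15 libraries. The promoters of the endocytic receptors LRP2 and CUBN held a peak in 1 and 0 libraries. Of the other cell types, PECAM1, TEK, UMOD, SLC12A3, AQP2 and the blood markers PTPRC, CD3E and SPI1 had a promoter peak in 0 libraries. The endothelial genes CDH5 and KDR and the podocyte gene PODXL had one in all 6 rescue libraries, NPHS1 had one in 1 Rescue1 library, and SLC12A1 had none in a rescue library.

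The summits of 6 of the highest-ranking exclusive regions are shown because they are sequences whose accessibility was seen in only 1 of the rescue clones. Each window is the summit base and 100 bases on each side, on the plus strand of hg38, and capitals mark every match to one of 22 searched motifs on either strand. The IZUMO3 window is chr9:24464440-24464640, between genes, and is Rescue1-only. The others are Rescue2-only and intronic: chr15:93467364-93467564 in the long non-coding gene ENSG00000257060, chr18:6747770-6747970 in ARHGAP28, chr7:70648152-70648352 in AUTS2, chr5:15510845-15511045 in FBXL7 and chr1:34199970-34200170 in C1orf94.
IZUMO3 window: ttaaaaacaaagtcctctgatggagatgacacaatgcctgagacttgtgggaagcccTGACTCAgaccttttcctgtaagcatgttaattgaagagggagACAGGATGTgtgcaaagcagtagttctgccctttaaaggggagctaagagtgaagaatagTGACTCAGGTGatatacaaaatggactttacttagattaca
ENSG00000257060 window: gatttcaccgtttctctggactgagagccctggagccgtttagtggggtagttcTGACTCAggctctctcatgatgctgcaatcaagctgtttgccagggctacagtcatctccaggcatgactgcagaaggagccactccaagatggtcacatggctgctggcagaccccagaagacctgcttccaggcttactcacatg
ARHGAP28 window: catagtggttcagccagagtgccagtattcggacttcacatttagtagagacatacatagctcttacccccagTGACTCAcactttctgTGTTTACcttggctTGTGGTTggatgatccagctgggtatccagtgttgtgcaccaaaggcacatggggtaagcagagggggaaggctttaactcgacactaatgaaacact
AUTS2 window: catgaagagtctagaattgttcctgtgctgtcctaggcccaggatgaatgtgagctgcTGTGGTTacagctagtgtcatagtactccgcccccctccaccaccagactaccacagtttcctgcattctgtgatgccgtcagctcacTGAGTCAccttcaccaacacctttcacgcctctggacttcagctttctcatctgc
FBXL7 window: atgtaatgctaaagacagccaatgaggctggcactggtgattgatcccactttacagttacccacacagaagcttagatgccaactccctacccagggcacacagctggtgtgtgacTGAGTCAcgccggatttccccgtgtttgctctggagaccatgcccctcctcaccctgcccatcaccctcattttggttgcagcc
C1orf94 window: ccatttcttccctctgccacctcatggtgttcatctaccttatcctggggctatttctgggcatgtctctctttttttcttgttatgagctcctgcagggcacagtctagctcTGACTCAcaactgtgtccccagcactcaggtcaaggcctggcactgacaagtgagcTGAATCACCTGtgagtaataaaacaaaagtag

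All 6 windows, and the windows of the 2 Rescue1-only regions nearest to SPANXN1 on chromosome X, hold the AP-1 motif TGANTCA. The Rescue1-only region in an exon of ZSCAN5A, of higher rank than those near SPANXN1, is not printed and held no AP-1 match around its summit. In the IZUMO3 and C1orf94 windows an AP-1 match runs into the E-box CAGGTG, so those letters count for both. The ARHGAP28 window also holds the FOX motif TGTTTAC and, like the AUTS2 window, the RUNX motif TGTGGTT. The steroid receptor motif ACANNNTGT is in the IZUMO3 window. AP-1 was common in these libraries in general: it lay in the 200 bases around the summit of 29.3% of all merged regions and of 41.8% of those at or above percentile 85 of peak strength, where 4 of 6 Rescue1-only (66.7%) and 61.5% of 26 Rescue2-only regions held it. A match is a description of the letters and not a bound site.

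The values that chose these regions are given with no test. At the IZUMO3 region (chr9:24464415-24464785) the summit pileup, the number of reads stacked at the peak's highest base, was 40, 37 and 45 in Rescue1, 26, 15 and 18 in KO2, and no peak was called in Rescue2, WT or KO1. The SYN3 region (chr22:32591630-32591984), in an intron of the synaptic vesicle gene synapsin III, had 34, 35 and 31 in Rescue1, 17, 12 and 14 in KO2 and no peak elsewhere. Both were open in KO2 and higher in every Rescue1 than in every KO2 library. An exon of the zinc finger gene ZSCAN5A (chr19:56367960-56368724) had the opposite history, with 61, 56 and 52 in WT, no peak in either knockout and 35, 41 and 52 in Rescue1.

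Among the Rescue2-only regions, the one in ENSG00000257060 (chr15:93467308-93467683) was open in all 9 WT and KO libraries, at 41 to 56 reads in WT, 33 to 52 in KO1 and 49 to 57 in KO2, and at 56, 55 and 49 in Rescue2. This region was thus missing from Rescue1 alone. The regions in AUTS2 (chr7:70647780-70648449) and FBXL7 (chr5:15510820-15511111) held a peak in KO2 and Rescue2 but in no WT, KO1 or Rescue1 library: AUTS2 had 36, 21 and 36 reads in KO2 and 56, 45 and 42 in Rescue2, and FBXL7 had 25, 24 and 30 in KO2 and 42, 39 and 36 in Rescue2. The regions in ARHGAP28 (chr18:6747744-6747979), a gene for a GTPase-activating protein, and C1orf94 (chr1:34199749-34200354) held a peak in all KO1 and KO2 libraries and in no WT library.

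Most exclusive regions were weaker than these. The median within-library percentile of peak strength was 22.3 for Rescue1-only and 25.7 for Rescue2-only regions, against 65.2 for regions with a peak in all 6. Only 6.71% and 8.88% of exclusive regions lay over percentile 50, against 70.2%. Their median widths were 170 and 185 bp, against 350 bp. Just outside the rule, 4463 regions held a peak in 2 Rescue1 and 0 Rescue2 libraries and 3849 in 3 Rescue1 and 1 Rescue2 library, and 12887 and 7228 regions stood in the same places on the Rescue2 side. The counts depended on which lists had to agree: without Rescue1 replicate 1, 2 or 3 the Rescue1-only count was 3390, 4012 and 3952, without Rescue2 replicate 1 it was 4736, and without Rescue2 replicate 3 the Rescue2-only count was 16223.

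When each library was cut to its 150000 strongest peaks by −log10 q, 187116 merged regions remained, of which 2727 were Rescue1-only (1.46%) and 4207 Rescue2-only (2.25%). The excess of Rescue2-only over Rescue1-only regions went from 3.37-fold to 1.54-fold. Of the equal-list regions, 320 Rescue1-only (11.7% of them, 14.3% of those of the full lists) and 1026 Rescue2-only (24.4% and 13.6%) were also exclusive in the full lists. The rest, 88.3% and 75.6%, held a weaker peak in the other clone. For scale, the same rule on the full lists gave 3231 KO1-only and 7794 KO2-only regions, and 20467 Rescue1-only against 13083 WT-only regions.

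The exclusive regions were then followed into the libraries the rule had not used. Of the Rescue1-only regions, 22.9% ± 3.13 held a peak in a WT library, 33.2% ± 1.42 in a KO1 library and 38.3% ± 7.15 in a KO2 library (SD, n = 3). Of the Rescue2-only regions, the shares were 37.8% ± 2.73, 38.6% ± 1.90 and 53.3% ± 6.40. Regions open in all 6 rescue libraries held a peak in 86.3%, 89.0% and 94.2%.

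**Figure D1:**
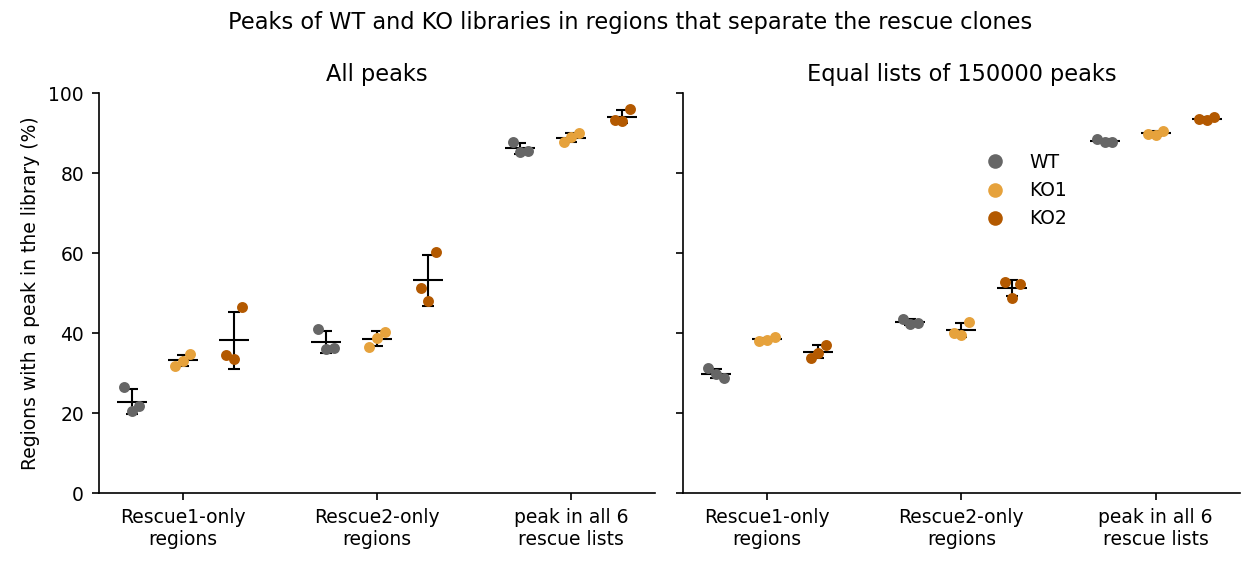
Share of regions with a peak (vertical axis, %) in each WT, KO1 and KO2 library, for Rescue1-only regions, Rescue2-only regions and regions with a peak in all 6 rescue libraries, with all peaks (left) and equal lists (right). Points are libraries and bars the mean and SD; with all peaks the Rescue2-only regions lie highest in KO2, at a mean of 53.3%, against 37.8% in WT and 38.6% in KO1.

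Rescue2-only regions were open 14.7 percentage points more often in KO2 than in KO1, and the 3 libraries of each clone did not overlap (exact permutation p = 0.1, the smallest possible). The KO2 lists were longer than the KO1 lists (220315 to 254650 against 204028 to 216023 peaks), and with equal lists the difference was 10.5 points (p = 0.1, exact). For Rescue1-only regions KO2 exceeded KO1 by 5.01 points (exact permutation p = 0.3), and with equal lists the order turned, with every KO1 library above every KO2 library (-3.08 points, p = 0.1, exact). Against WT, the 6 knockout libraries held Rescue1-only regions 12.8 points more often (exact permutation p = 0.0238, two-sided, the smallest that 3 against 6 allows; 6.98 points and the same p with equal lists) and Rescue2-only regions 8.14 points more often (p = 0.19, exact). The regions open in all 6 rescue libraries also moved, by 5.32 points (p = 0.0476, exact). These tests against WT pool the KO1 and KO2 libraries as separate units against those of the WT line. Their p-values therefore do not stand for independent clones.

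By region, 484 Rescue1-only (21.6%) and 2855 Rescue2-only regions (37.9%) held a peak in 3 of 3 KO2 libraries, and 968 (43.3%) and 2347 (31.1%) in 0 of 3. Regions open in KO2 and closed to calling in WT numbered 284 (12.7%) and 1188 (15.8%), against 6.22% of regions in all 6. Those with the reverse state, a peak in 3 of 3 WT and 0 of 3 KO2 libraries, numbered 87 (3.89%) and 372 (4.94%), against 0.837% of regions in all 6. A further 588 Rescue1-only regions (26.3%) and 1320 Rescue2-only regions (17.5%) held a peak in none of the 9 WT and KO libraries.

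Whether either clone had returned further to the WT state was asked on regions the rescue libraries had not defined. Of 25485 regions gained in KO2 (3 of 3 KO2, 0 of 3 WT), the Rescue1 libraries held 57.3%, 53.9% and 56.2% and the Rescue2 libraries 71.8%, 64.4% and 56.4%. All Rescue2 values except that of replicate 3 lay well above those of Rescue1, and replicate 3 lay between them. The means were 55.8% ± 1.72 and 64.2% ± 7.73 (SD, n = 3), a difference of -8.35 points (exact permutation p = 0.2; -4.54 points without Rescue2 replicate 1). With equal lists (15321 regions) the Rescue1 libraries held 56.3%, 57.1% and 60.2% and the Rescue2 libraries 61.5%, 62.1% and 61.7%, without overlap (-3.90 points, p = 0.1, exact, the smallest possible).

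Of 9787 regions lost in KO2, the Rescue1 libraries had regained 31.7%, 27.9% and 29.5% and the Rescue2 libraries 48.8%, 40.1% and 30.2%. The difference was -10.0 points (exact permutation p = 0.2; -5.47 points without Rescue2 replicate 1 and -2.87 points with equal lists). The Rescue2 mean was thus the higher for gained and for lost regions alike; with the full lists its libraries overlapped those of Rescue1 in both cases. At regions lost in KO1 (14464), where the libraries of the clones did not overlap, the difference was -11.4 points (exact permutation p = 0.1; -7.13 points without Rescue2 replicate 1; -5.57 points, p = 0.1, with equal lists). At those gained in KO1 (21408) it was -5.89 points (p = 0.3, exact; -1.41 points, p = 0.4, with equal lists).

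The Jaccard index of bases under peaks, the shared bases over the bases of either library, ordered the clones differently with full and equal lists. The mean index with WT was 0.587 ± 0.000291 for Rescue1 and 0.586 ± 0.00702 for Rescue2 (SD, n = 3; exact permutation p = 0.8), with KO1 0.601 and 0.596 (p = 0.3, exact) and with KO2 0.632 and 0.636 (p = 0.3, exact). With equal lists every Rescue2 library lay above every Rescue1 library in its index with WT (0.606, 0.599 and 0.602 against 0.597, 0.596 and 0.595; difference -0.00646, p = 0.1, exact, the smallest possible). With the full lists both clones had their lowest mean index with WT and their highest with KO2. Between the clones the index was 0.677, against 0.723 within Rescue1 and 0.705 within Rescue2.

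Exclusive regions were spread over many genes, and some genes held several. They were counted in each protein-coding gene plus 10 kb on each side: 1596 of 20007 genes (7.98%) held a Rescue1-only region, 3491 (17.4%) a Rescue2-only region and 510 both. Genes are named below by these counts, so a gap in bases between the rescue clones is part of the choice. The choice also favours a high rank of the clone with the peaks, and the bases are given with no test. SYN3 held the most Rescue1-only regions, 23 of its 45 merged regions, and 0 Rescue2-only regions. The bases under peaks at SYN3 were 8400, 8257 and 9146 in Rescue1 and 2614, 2428 and 2091 in Rescue2. They were 3875, 3665 and 5621 in KO2, 2346, 1702 and 1998 in WT, and 0 in every KO1 library. Rescue1 was above all other groups, and Rescue2 was near WT and below KO2 at this locus. Of these regions, 20 lay in a row over 216 kb (chr22:32587584-32803273), a stretch that also holds TIMP3, an inhibitor of matrix metalloproteinases. None of the 25 merged regions in that stretch held a Rescue2 peak.

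**Figure D2:**
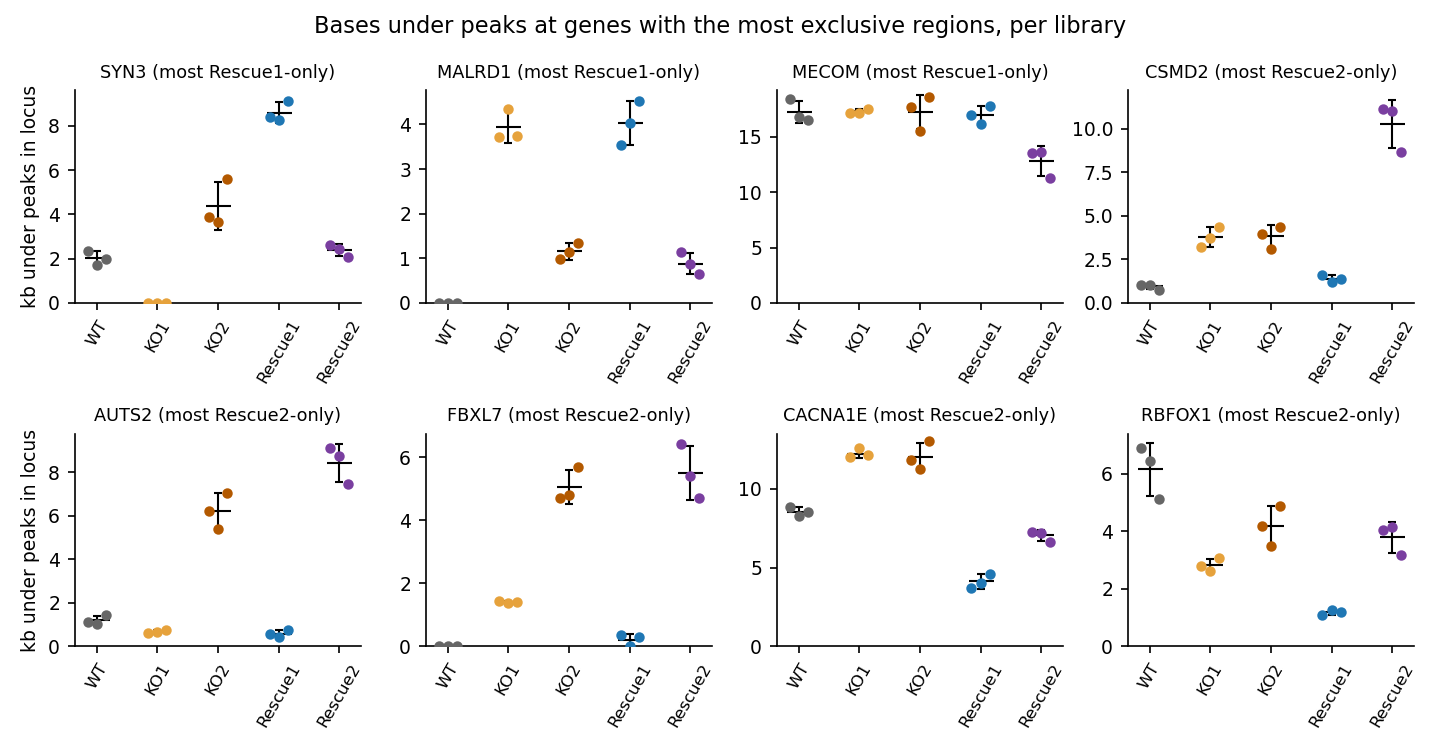
Kilobases under peaks (vertical axis) in the gene plus 10 kb on each side at 8 of the genes with the most exclusive regions, for each library of the 5 groups (points), with mean and SD (bars). SYN3 is highest in Rescue1 and at 0 in KO1, AUTS2 and FBXL7 are higher in KO2 and Rescue2 than in the other groups, and CACNA1E is lowest in Rescue1.

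MALRD1, which encodes a regulator of intestinal FGF19, held 13 Rescue1-only regions of 29. Its bases under peaks were 3548, 4042 and 4533 in Rescue1, 1134, 864 and 650 in Rescue2, 979, 1143 and 1349 in KO2, 3722, 4349 and 3747 in KO1 and 0 in all WT libraries. Rescue1 here resembled KO1 in level, and Rescue2 resembled KO2. PTPRD, a receptor tyrosine phosphatase, held 8, the zinc finger transcription factor gene MECOM 7, and the neural adhesion genes CNTN5 and TENM3 held 6 and 5. KCNB2, PDE10A, GMDS and INPP4B held 4 each. At TENM3, PDE10A, GMDS and INPP4B the bases did not separate the clones. There Rescue2 replicates 1 and 2 lay above every Rescue1 library and replicate 3 below. With equal lists TENM3 held 2 Rescue1-only and 3 Rescue2-only regions, and PDE10A held 0 of either kind. At MECOM the Rescue2 libraries stood apart from all others, with 13569, 13656 and 11307 bases against 15579 to 18566 in the other 12 libraries.

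CSMD2 held 28 Rescue2-only regions of 61. Its bases were 11108, 10996 and 8657 in Rescue2 and 1590, 1183 and 1399 in Rescue1, against 3968, 3101 and 4373 in KO2, 3193, 3749 and 4333 in KO1 and 1027, 1037 and 767 in WT. Rescue2 exceeded every other group, and Rescue1 lay between WT and the knockouts. AUTS2, a gene tied to neurodevelopment whose protein joins a Polycomb complex, held 24 Rescue2-only regions of 39, of which 19 held a peak in 3 of 3 KO2 libraries.

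At AUTS2 the bases were 9121, 8741 and 7454 in Rescue2, 6222, 5409 and 7066 in KO2 and 448 to 741 in Rescue1, with 1015 to 1449 in WT and 596 to 774 in KO1. KO2 and Rescue2 were high and the other 3 groups low, without overlap. FBXL7, which encodes an F-box subunit of a ubiquitin ligase, had the same layout, with 12 Rescue2-only regions, 0 bases in all WT libraries, 4691 to 5671 in KO2, 4698 to 6409 in Rescue2 and 354, 0 and 286 in Rescue1.

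CACNA1E, a voltage-gated calcium channel gene, differed from these. All 11 of its Rescue2-only regions held a peak in 3 of 3 libraries of WT, KO1 and KO2, and its bases were 3717, 4033 and 4621 in Rescue1, 6652 to 7286 in Rescue2 and 8263 to 13010 in WT and the knockouts. Here Rescue1 was the lowest group. At the splicing factor gene RBFOX1, with 11 Rescue2-only regions, Rescue1 was also lowest, with 1078, 1278 and 1205 bases against 2616 to 6918 in the other 12 libraries. AGBL1, ARHGAP28, LINGO2, PXDNL and SORCS2 held 9 each.

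Stretches of neighbouring exclusive regions of one kind, with no region of the other kind or of all 6 libraries between them, held 5.41% of Rescue1-only and 8.78% of Rescue2-only regions when they had at least 3 members. On the Rescue1 side the next longest lay at chrX:144275386-145003043 (16 regions, of which 9 held a peak in 3 of 3 KO1 and 8 in 3 of 3 KO2 libraries, and 16 in 0 of 3 WT libraries). On the Rescue2 side they were chr1:33660360-34598163 over CSMD2, C1orf94 and HMGB4 (39 of 67 merged regions) and chr7:70384934-71615211 over AUTS2 and GALNT17 (33 of 55, with 26 in 3 of 3 KO2 libraries). A stretch of 14 at chr4:188138203-188586873, around TRIML1, was mostly of the CACNA1E kind, with 12 in 3 of 3 libraries of WT, of KO1 and of KO2. A stretch of 13 at chr1:12792434-13297828 covers the PRAMEF family, whose copies are alike enough that reads could be placed at the wrong member.

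Shifts of whole chromosomes and of 5 Mb bins were looked for in the summit heights of regions open in all 6 libraries. The median log2 difference (Rescue1 minus Rescue2) per chromosome lay between 0.01 and 0.04. In 564 bins of 5 Mb the 5th and 95th percentiles were -0.03 and 0.06, and the extremes were -0.14 and 0.13. Among chromosomes 1 to 22 and X, the share of merged regions that was Rescue2-only ran from 1.91% on chromosome 22 to 3.06% on chromosome 8, and the Rescue1-only share from 0.475% on chromosome 21 to 1.23% on chromosome 22. Chromosome Y is not covered by these values.

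Promoters in a narrow window were rare among the exclusive regions. A promoter, 1000 bases before to 100 after the start of a protein-coding gene, held the summit of 60 Rescue1-only (2.68%) and 110 Rescue2-only regions (1.46%), against 5.20% of merged regions and 8.48% of regions in all 6. With 2500 bases on each side of a start, the Rescue1-only share was 10.1%, near the 10.9% of merged regions, and the Rescue2-only share was 4.18%. Introns held 59.8% and 54.8%, and intergenic positions 27.5% and 37.7%, against 55.1% and 28.1% of regions in all 6. Summits with a GC content over 60% made up 12.3% of Rescue1-only and 4.56% of Rescue2-only regions. The share was 11.9% of all merged regions and 16.3% of regions in all 6, so the Rescue1-only value was near the general share.

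**Figure D3:**
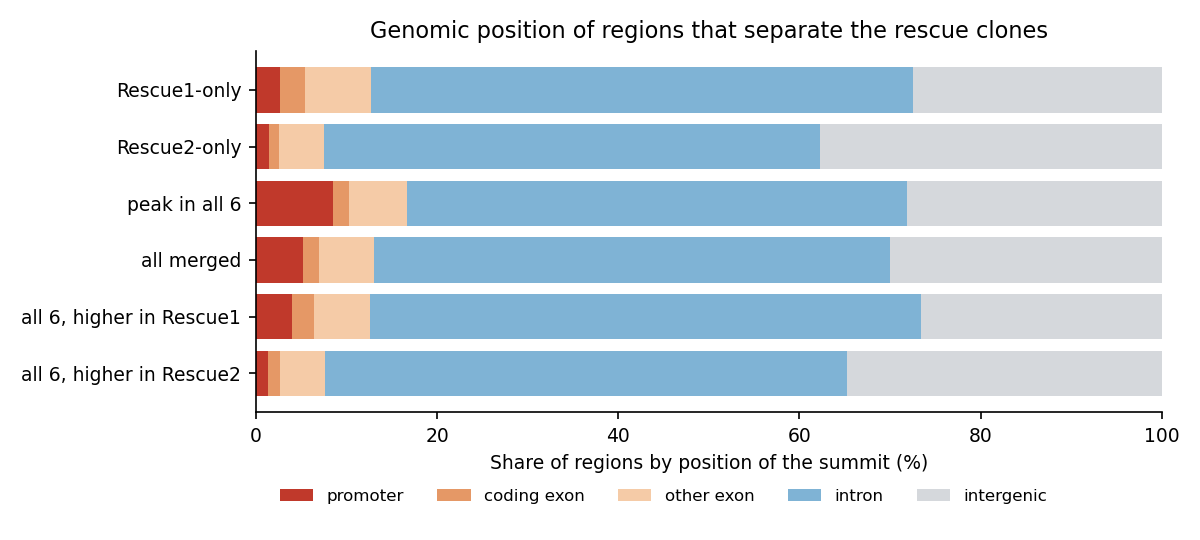
Share of regions (horizontal axis, %) whose summit lay in a promoter, coding exon, other exon, intron or between genes, for the exclusive regions, regions in all 6 libraries, all merged regions and regions with a called height difference. The promoter part is 2.68% of Rescue1-only and 1.46% of Rescue2-only regions, against 8.48% of regions in all 6.

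Of the promoters with a Rescue1-only region, 20 held a peak in 3 of 3 KO2 libraries and 25 in 0 of 3. Those with the strongest peaks were ZNF215, C8orf48 (inside DLC1), ZNF454, OSBPL1A, PLCXD3, BAIAP3, CFAP161, SYK, ACRBP and DLEC1. The promoter of ZNF215, a zinc finger gene, had 31, 33 and 42 reads in Rescue1 and 14, 12 and 12 in WT, no peak in KO1 or Rescue2 and 7 and 8 in 2 KO2 libraries. The promoter of the tyrosine kinase SYK had 17, 10 and 13 in Rescue1 and 14 to 22 in the 6 knockout libraries. That of ACRBP, an acrosin-binding protein gene, was lower in Rescue1 (13, 10 and 17) than in WT (35, 32 and 37), and Rescue2 held no peak. The Rescue1-only promoters thus included pileups above and below those of WT.

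On the Rescue2 side, 38 promoter regions held a peak in 3 of 3 KO2 libraries and 41 in 0 of 3, and those with the strongest peaks were ZNF471, ZNF671, TUBB1, FBXL7, COL16A1, LUM, CHRNA7, EPOR, HACD4 and CLTRN. The zinc finger gene ZNF471 had 69, 56 and 68 reads in WT, none called in KO1, 9, 10 and 13 in KO2 and 48, 41 and 35 in Rescue2. This promoter was below WT in every Rescue2 library and above every KO2 library. The collagen gene COL16A1 had 47, 46 and 37 in Rescue2, 26 to 42 in KO2 and 13 to 18 in WT. The promoter of LUM, a keratan sulfate proteoglycan of the matrix, had 30, 23 and 28 in Rescue2 and 14 to 26 in the WT and knockout libraries. CLTRN, which encodes collectrin, a partner of amino acid transporters of the proximal tubule, had 17, 14 and 18 in Rescue2, 7 and 8 in 2 KO1 libraries, 9 in 1 KO2 library and no peak in WT.

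The 250 bases before the start of ZNF215, FBXL7 and CLTRN are shown because they stand for the different kinds of exclusive promoter. They are from RefSeq on GRCh38.p14 and lie at chr11:6926176-6926425 (plus strand), chr5:15499930-15500179 (plus strand) and chrX:15664806-15665055 (minus strand, read 5′ to 3′ on that strand). Capitals again mark motif matches.
ZNF215 promoter: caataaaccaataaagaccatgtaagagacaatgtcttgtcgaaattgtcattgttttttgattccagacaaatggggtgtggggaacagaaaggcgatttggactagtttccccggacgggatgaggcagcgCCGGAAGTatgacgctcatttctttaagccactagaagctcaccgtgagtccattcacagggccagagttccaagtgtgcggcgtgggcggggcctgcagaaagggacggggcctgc
FBXL7 promoter: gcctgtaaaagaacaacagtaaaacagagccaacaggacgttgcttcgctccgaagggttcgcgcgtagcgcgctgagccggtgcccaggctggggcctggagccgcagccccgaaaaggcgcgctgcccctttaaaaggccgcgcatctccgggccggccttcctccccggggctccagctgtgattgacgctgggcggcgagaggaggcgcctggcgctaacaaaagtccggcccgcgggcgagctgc
CLTRN promoter: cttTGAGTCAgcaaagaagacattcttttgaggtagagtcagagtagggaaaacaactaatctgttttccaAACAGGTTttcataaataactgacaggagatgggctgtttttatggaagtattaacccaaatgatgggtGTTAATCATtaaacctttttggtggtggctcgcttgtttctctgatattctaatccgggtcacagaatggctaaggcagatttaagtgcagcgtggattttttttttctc

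The ZNF215 window holds 1 ETS motif CCGGAAGT (3.42% of 35116 promoter windows of this length hold one), the FBXL7 window holds none of the 22 motifs but 27 CpG dinucleotides, against a median of 11, and the CLTRN window has 3 CpG dinucleotides. The CLTRN window holds AP-1 (6.57% of promoter windows), GRHL AACNGGTT (1.49%) and HNF1 GTTAATNAT (0.723%), the last being the motif of proximal tubule factors. The window of a promoter need not hold the summit.

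Motifs were then counted over all exclusive regions, in the 200 bases around the summit and with both strands read. The RUNX motif lay in 6.08% of Rescue1-only, 11.2% of Rescue2-only and 8.80% of regions in all 6, and the GATA motif AGATAAG in 4.02%, 1.53% and 2.04%. With equal lists the shares were 7.77%, 13.3% and 8.28% for RUNX and 4.18%, 1.69% and 2.01% for GATA. The NF-kB motif GGANTTTCC lay in 1.16% and 2.44%, and the POU motif ATGCAAAT in 0.671% and 1.72%, of Rescue1-only and Rescue2-only regions, against 2.09% and 1.09% of regions in all 6. AP-1 was alike in both, at 27.4% and 27.0%, against 34.6% of regions in all 6 and 29.3% of all merged regions. It was less common in weaker peaks. Below percentile 25 of peak strength AP-1 lay in 24.8% of 1289 Rescue1-only, 25.5% of 3593 Rescue2-only and 22.5% of all merged regions. The CTCF core, at 1.43% and 1.41%, was below the 3.51% of regions in all 6. The E-box of ZEB and SNAI lay in 14.2% of Rescue1-only and 16.8% of Rescue2-only regions, against 16.8% of all merged regions. Among those with no peak in KO2 it lay in 17.05% of Rescue1-only and 23.8% of Rescue2-only regions. The shares were 10.7% and 11.8% of those with a peak in 3 of 3 KO2 libraries. Regions in all 6, of any KO2 state, held it in 16.1%, so the 17.05% was near the general share. The share among all regions without a KO2 peak was not computed. These are descriptions; no test was applied.

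Regions open in all 6 libraries gave a measure that the rule had not used, the height of the summit. Of 148223 such regions, 5664 were higher in Rescue1 (3.82%) and 8860 higher in Rescue2 (5.98%) by limma on log2 pileup with Benjamini-Hochberg adjustment, with median log2 differences (Rescue1 minus Rescue2) of 0.61 and -0.68. With each library left out in turn the counts were 3771 to 4782 and 6302 to 8082; only the omission of Rescue1 replicate 2 moved a count, to 3771, by over 1.5-fold. Of the called regions 57.5% and 60.1% held a peak in all 15 libraries.

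Called regions lay in promoters less often than the rest. Promoters made up 4.01% of those higher in Rescue1 and 1.29% of those higher in Rescue2, against 8.48% of all tested. Intergenic summits made up 26.6% and 34.8%, against 28.1% of all tested. Where a peak was called in all 15 libraries, the regions higher in Rescue1 had a median height above KO2 by 0.30 (log2) in Rescue1, and the Rescue2 median was -0.21 against KO2. The regions higher in Rescue2 lay at -0.49 in Rescue1 and 0.14 in Rescue2. KO2 was nearer to Rescue1 in 34.1% of them, in 44.1% of those higher in Rescue1 and in 46.8% of all tested regions with a peak in all 15 libraries. The calls themselves fix the order of the rescue clones. WT and KO1 lay between the clones at the median in both sets as well: the regions higher in Rescue1 were at 0.38 in Rescue1 and -0.15 in Rescue2 against WT and at 0.30 and -0.22 against KO1, and the regions higher in Rescue2 at -0.39 and 0.24 against WT and at -0.35 and 0.28 against KO1.

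The region with the lowest p among those higher in Rescue1 lies in an intron of NOSIP (chr19:49575657-49576126), a gene for a nitric oxide synthase-interacting ubiquitin ligase. Its summit pileup was 63, 58 and 64 in Rescue1, 18, 20 and 13 in Rescue2, 23, 17 and 20 in KO2, 16 to 17 in KO1 and 11 and 10 in 2 WT libraries. Rescue1 lay above every other library (log2 difference from Rescue2 1.97, SE 0.13, adjusted p = 5.16e-26 by limma with Benjamini-Hochberg adjustment). Others higher in Rescue1 were an intron of GNB1L (log2 1.90), an intron of SAMD5, a coding exon of the GPI-anchored surface antigen gene PSCA (1.46) and a region near ZMYM5 (1.96).

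The region in an intron of GIT2 (chr12:109937316-109937903), a GTPase-activating scaffold gene, had 16, 15 and 13 reads in Rescue1, 56, 61 and 51 in Rescue2, 58, 50 and 59 in KO2, 47 to 56 in KO1 and 18, 16 and 11 in WT. Rescue1 was at the WT level and Rescue2 at the KO level here (log2 -1.85, SE 0.15, adjusted p = 8.56e-21 by limma with Benjamini-Hochberg adjustment). In RPH3A, a synaptic vesicle trafficking gene, both clones exceeded WT (10 to 14 reads), Rescue1 with 25, 26 and 27 and Rescue2 with 66, 70 and 70 (log2 -1.31). The others were introns of PXDNL (-1.92), DAZL (-1.53), a germ-cell RNA-binding protein gene with no peak in KO1, and FAM167A (-1.44).

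**Figure D4:**
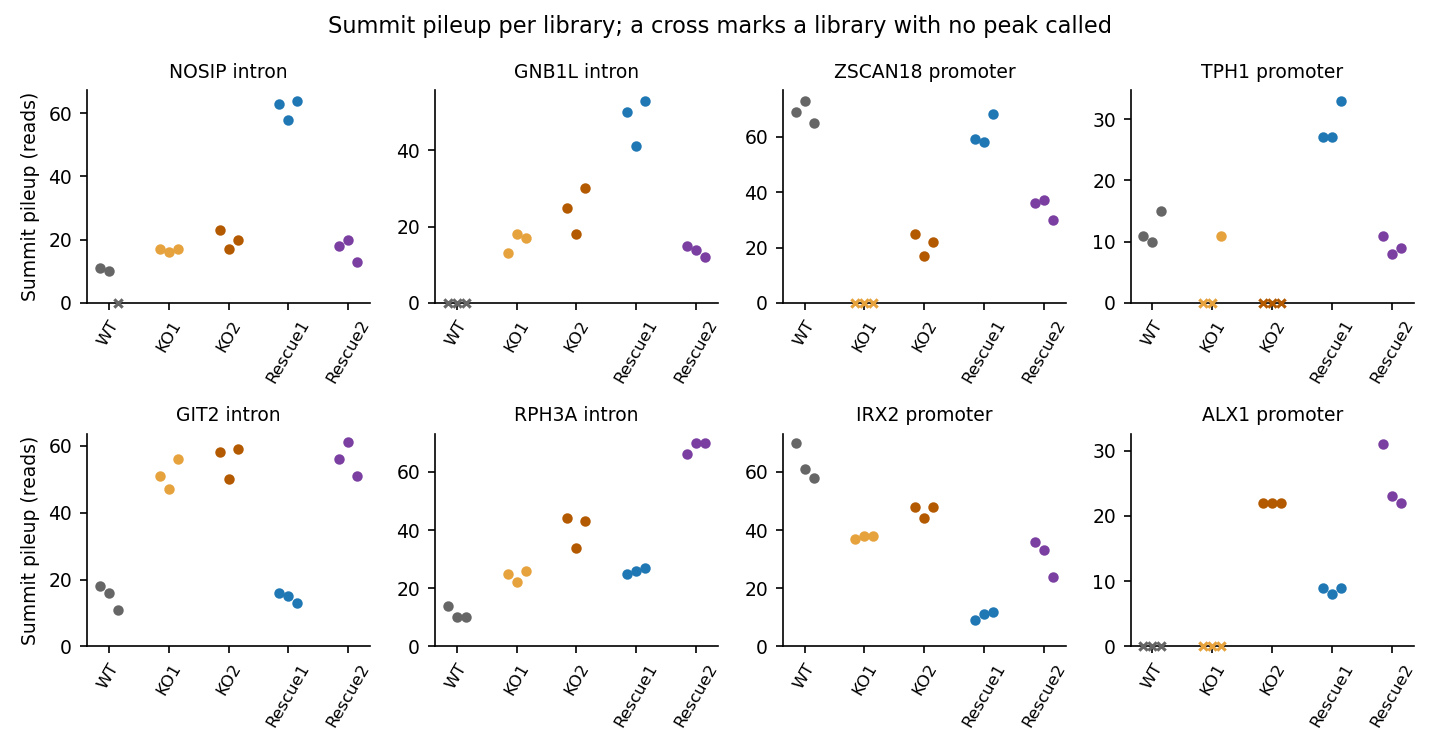
Summit pileup (vertical axis, reads) in each library of the 5 groups at 8 regions with a called height difference between the rescue clones; crosses on the axis mark libraries with no called peak. At GIT2 the Rescue1 libraries lie at 13 to 16 reads, as WT does at 11 to 18, and the Rescue2 libraries at 51 to 61, as KO2 does at 50 to 59.

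Of 12569 tested promoters, 227 (1.81%) were higher in Rescue1 and 114 (0.907%) in Rescue2. Those with the lowest p were picked after their values were seen. ZSCAN18, a zinc finger gene, had 59, 58 and 68 reads in Rescue1, 36, 37 and 30 in Rescue2, 65 to 73 in WT, 17 to 25 in KO2 and no peak in KO1 (log2 0.93, SE 0.11, adjusted p = 4.18e-12, limma with Benjamini-Hochberg adjustment). Rescue1 reached the WT range in 1 of 3 libraries, and Rescue2 lay between KO2 and WT. The promoter of TPH1, a tryptophan hydroxylase of serotonin synthesis, had 27, 27 and 33 in Rescue1 and 8 to 11 in Rescue2, with no peak in KO2 (log2 1.73). The limb and muscle homeobox gene MEOX2 was also higher in Rescue1 (log2 1.13).

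Among promoters higher in Rescue2, IRX2, an Iroquois homeobox gene of nephron patterning, had 9, 11 and 12 reads in Rescue1, 36, 33 and 24 in Rescue2, 44 to 48 in KO2, 37 to 38 in KO1 and 58 to 70 in WT. The order WT, KO2, KO1, Rescue2, Rescue1 held without overlap between groups (Rescue1 minus Rescue2 log2 -1.44, SE 0.20, adjusted p = 1.32e-08, limma with Benjamini-Hochberg adjustment). ALX1, a homeobox gene of craniofacial mesenchyme, had 9, 8 and 9 in Rescue1, 31, 23 and 22 in Rescue2 and 22 in every KO2 library, with no peak in WT or KO1 (log2 -1.45). The acute-phase gene SAA1 was higher in Rescue2 as well (log2 -0.79).

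Holders of the RUNX, POU, NF-kB and GATA motifs among the tested regions leaned to the same clone as the exclusive regions of all strengths did. For GATA and POU, the exclusive regions over percentile 50 did not keep that order. Of 13049 regions with a RUNX motif, 3.21% were higher in Rescue1 and 10.2% higher in Rescue2, and for POU the shares were 1.98% and 10.9% of 1613 and for NF-kB 2.07% and 10.3% of 3099. GATA was the reverse, with 8.10% and 4.20% of 3025. Regions with a CTCF core (2.23% and 1.40%) or the KLF/SP motif GGGGCGGGG (2.23% and 1.06%) were called less often than the 3.82% and 5.98% of all regions in both directions. AP-1 (3.94% and 5.70%) and the E-box (3.47% and 6.40%) lay near those values.

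**Figure D5:**
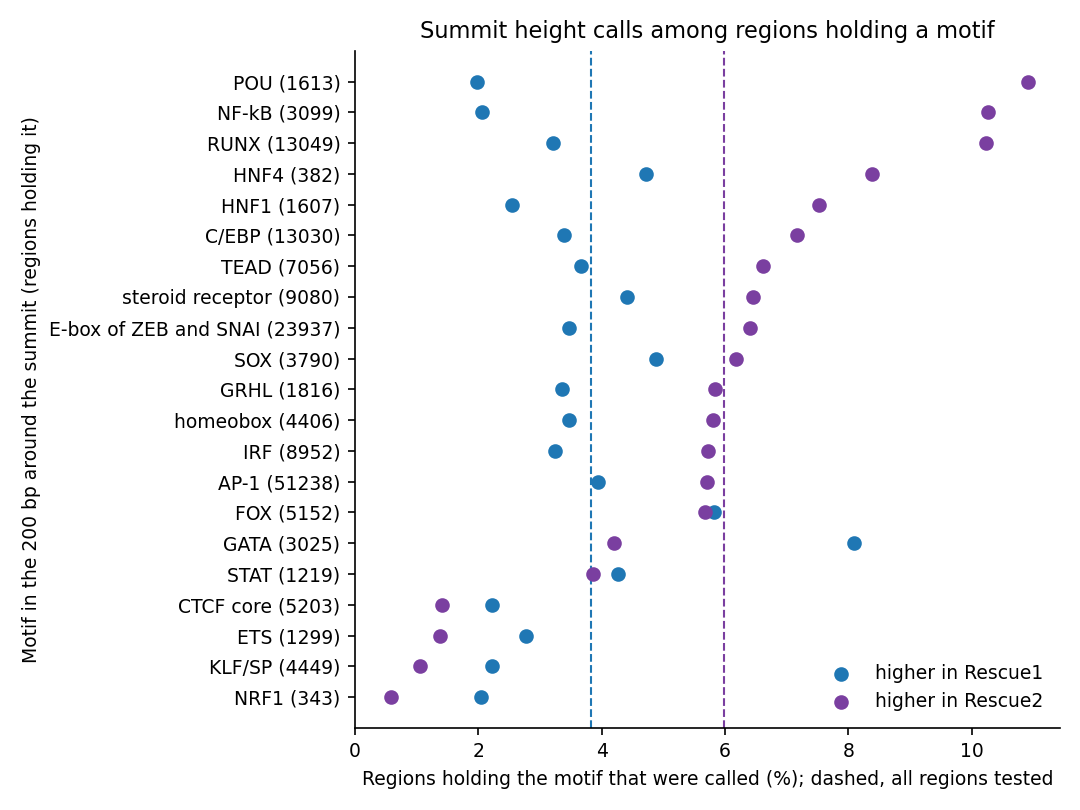
Share of the regions holding a motif (horizontal axis, %) that were higher in Rescue1 or in Rescue2, for the 21 motifs held by at least 300 regions (number in brackets); dashed lines mark the 3.82% and 5.98% of all regions tested. RUNX, NF-kB and POU lie over 10% in the Rescue2 direction, and GATA is at 8.10% in the Rescue1 direction.

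Gene lists that bear on the phenotypes of SETD2 loss were read against all genes. Regions near the 22 mesenchymal genes were called higher in Rescue1 in 11 of 194 and in Rescue2 in 6 of 194, and those of the 18 epithelial genes in 3 and 4 of 139, where all protein-coding loci gave 3.88% and 5.06% of 100030. The 19 proximal tubule genes had 9 and 8 of 176, the 23 interferon and cytokine genes 4 and 8 of 156 and the 14 WNT and stemness genes 1 and 7 of 122. The median log2 difference of these 5 lists lay between 0.02 and 0.04, against 0.03 for all. Of the 3 effectors the study chose on these cells (SOX2, POU2F2 and PRRX1), regions were higher in Rescue1 in 1 of 24 and in Rescue2 in 2 of 24; that choice is not independent evidence.

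Among tested promoters of these lists, POU2F2 (OCT2), a POU-domain factor, was higher in Rescue2, with 41, 40 and 33 reads against 23, 29 and 28 in Rescue1, 34 to 39 in KO2 and 11 to 18 in WT. The libraries did not overlap (log2 -0.43, SE 0.13, adjusted p = 0.0231, limma with Benjamini-Hochberg adjustment). MME (neprilysin), a brush border peptidase, was called higher in Rescue1 (log2 0.30, SE 0.10, adjusted p = 0.0488, limma with Benjamini-Hochberg adjustment), with 46, 51 and 60 against 53, 44 and 39, which overlap before centring on each library's median. SOX2 (log2 0.01, adjusted p = 0.957, limma with Benjamini-Hochberg adjustment) and CDH2 (log2 -0.04, adjusted p = 0.884, likewise) did not pass.

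Bases under peaks at gene loci gave a broader count. All 3 Rescue1 libraries exceeded all 3 Rescue2 libraries at 287 of 19184 genes (1.50%), and the reverse held at 2785 (14.5%); with equal lists the counts were 655 of 18797 (3.48%) and 2346 (12.5%). The mesenchymal list had 0 and 3 of 22 genes, the epithelial 0 and 1 of 18, the proximal tubule 0 and 3 of 19, and WNT and stemness 0 and 3 of 14. The interferon and cytokine list had 0 and 4 of 23, the collagens 0 and 4 of 44, the matrix metalloproteinases 0 and 3 of 24 and the HOX genes 1 and 0 of 39. The clustered protocadherins, cell adhesion genes in tandem arrays, had 0 and 8 of 50, and the zinc finger genes of chromosome 19 had 4 and 44 of 239. With equal lists the protocadherins had 0 and 18, these zinc finger genes 5 and 32, the matrix metalloproteinases 3 and 3, and HOX 0 and 1. Neighbouring genes of an array can share peaks within the 10 kb flanks, so they are not separate counts.

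In these lists, genes with at least 3 exclusive regions of 1 kind and none of the other were LGR5, COL21A1 and ZNF675, all on the Rescue2 side. Over all genes, 194 of 20007 (0.970%) met this rule on the Rescue2 side and 13 (0.0650%) on the Rescue1 side. LGR5, a Wnt-pathway receptor of epithelial stem cells, held 3 Rescue2-only regions, and its bases were 3172 ± 148 in Rescue1 and 4647 ± 632 in Rescue2 (SD, n = 3), against 4423 to 5039 in the knockouts and 2136 to 2316 in WT. ZNF675 on chromosome 19 held 9 Rescue2-only regions, with 1381 ± 63.9 bases in Rescue1 and 4886 ± 210 in Rescue2 (SD, n = 3). Its bases were 2367 to 3112 in WT, 3741 to 4144 in KO1 and 1531 to 2170 in KO2. COL21A1 held 3 Rescue2-only regions, and its libraries overlapped (7803 ± 723 against 8926 ± 775 bases).

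The targeted gene was checked in every library. The guide's target and its PAM (capitals) lie on the plus strand in coding exon 3 of SETD2 at chr3:47122997-47123019, printed because it sets the position of the knockout.
guide target: tagaatatgatgaccctcgtCGG

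No merged rescue region covered this site. SETD2 (chr3:47016428-47164113) held 25 merged regions, of which 11 held a peak in all 6 rescue libraries and 0 were exclusive, and its promoter held a peak in all 15 libraries. A peak over coding exon 15 was called in 12 of 12 knockout and rescue libraries and in 0 of 3 WT libraries, with a fold enrichment of the summit over local background of 10.4, 8.24 and 11.5 in Rescue1 and 9.51, 8.37 and 5.73 in Rescue2. Over coding exon 20, which is 102 bases long, all 3 Rescue1 libraries held a peak (3.94, 3.73 and 3.91-fold) against 1 Rescue2 library (3.02-fold) and no other. The coding exons are shared with the transgene's cDNA, so reads from the endogenous gene and from the transgene cannot be told apart, and the transgene dose of the clones was not measured here.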

How the data were processed

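ATAC-seq peak lists of 15 libraries were used. Per the labels and the study's methods, reads were aligned to hg38 with BWA (0.7.17 in the submitters' processing notes; the methods give another version), and MACS2 2.2.7.1 called peaks for each library without pooling. The authors deposited, per peak, a score (10 times −log10 q), the fold enrichment as a ratio over local background, −log10 p, −log10 q and the summit position. Control, duplicate handling and excluded regions were not stated. The lists hold no read totals, and calling at a threshold limits the precision of each count. The study's read-count test with DiffBind 2.14.0 was not used.

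Peaks sharing 1 bp were merged. The fold enrichment and −log10 p give a whole-number summit pileup (tolerance 0.0005), solved for at least 99.9995% of peaks. Only 1 whole number met the tolerance for 97.3% of peaks in Rescue2 replicate 3, 98.3% in KO2 replicate 1 and at least 99.9% elsewhere. The closest number was taken. Its log2 value, centred on each library's median, was tested with limma 3.58.1 (trend, Benjamini-Hochberg, threshold 0.05; R 4.3.3), after a test on simulated data. No pseudocount or filter was applied. Shares and sums were tested by exact permutation over libraries (numpy 2.4.6), with the smaller tail doubled. The pileup was solved with scipy 1.17.1. Gene models were GENCODE. Coordinates count from 1.

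Named were the 5 regions of each kind with the highest percentile of −log10 q, the 10 genes with the most exclusive regions, the 10 promoters with the strongest, the 5 regions with the lowest limma p in each direction, SETD2, and list genes with at least 3 exclusive regions of 1 kind. Members and lists were chosen with earlier results of these data known. Alternatives are given in the closing section. Some items are not reported here.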

Additional observations from a re-analysis of the deposited data

How the results depend on the processing

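The number of exclusive regions depended on the lists and on how many had to agree. With 150000 peaks per list, the Rescue2-only count was 4207. Asking for at least 2 of 3 libraries against 0 of 3 gave 6700 Rescue1-only and 20424 Rescue2-only regions. Leaving out each library in turn gave 2610 to 4736 Rescue1-only and 8871 to 16223 Rescue2-only regions, and with equal lists 3711 to 4457 Rescue1-only regions (4346 without Rescue1 replicate 2), since fewer lists then had to agree. Rescue2-only regions outnumbered Rescue1-only regions under each of these settings. Calls on height fell to 1774 higher in Rescue1 and 3658 higher in Rescue2 for the 50% of regions with the greatest mean height, and to 1786 and 3916 in a fit of all 15 libraries on regions with a peak in each, both on fewer regions. With a library left out they ranged over 3771 to 4782 and 6302 to 8082. Promoter shares were 10.1% and 4.18% with 2500 bases on each side of a start, against 10.9% of merged regions and 14.2% of regions in all 6. With equal lists and the narrow window they were 2.02% and 0.951%, against 5.57% of merged regions. Equal lists gave 655 gene loci with more bases in every Rescue1 library.

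Directions turned at 3 differences; for the first and for the index with WT the equal-list values separated the groups without overlap (exact p = 0.1, the smallest possible). The Rescue1-only difference of KO2 from KO1 was -3.08 points with equal lists. The Jaccard difference (Rescue1 minus Rescue2) was -0.00646 with WT and -0.000959 with KO1 with equal lists, and -0.00123 with WT without Rescue2 replicate 1 (-0.00123 to 0.00539 over the libraries left out); the cause was not tested.

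The replicate number as a block gave 6192 regions higher in Rescue1 and 9250 higher in Rescue2. Same-numbered libraries did not deviate together (correlations over regions 0.0503, -0.00338 and 0.0368), so the numbers were not read as pairs. The planned overlap of 50% of the region or of the peak changed nothing by construction, since each peak lies inside its region; asking for 50% of the region, chosen after the data were seen, gave 2918 and 10311.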
